A study of Homo sapiens with 2 samples.

Results

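The YAP, TEAD and target genes described here are 10 genes of the Hippo pathway: YAP1, WWTR1, TEAD1, TEAD4, CCN1, CCN2, AMOTL2, ANKRD1, LATS1 and NF2. They were taken by symbol, through GENCODE release 44, from 58735 Ensembl genes counted in 2 libraries, and all 10 symbols had a row in both tables. The RNA was polyadenylated RNA of MCF10a-Snail-ER cells, a human mammary epithelial line that stably expresses the transcription repressor Snail fused to the estrogen receptor. Both came from cells exposed to 100 nM tamoxifen for 1 day, which activates the fusion protein and initiates epithelial-to-mesenchymal transition, in medium with horse serum, EGF, hydrocortisone, cholera toxin and insulin. One library was Oxford Nanopore direct RNA, which reads native RNA strands from the poly(A) tail, and the other was an Illumina TruSeq stranded mRNA library, made from fragmented RNA through amplified cDNA. With a single library on each platform and none from untreated cells, levels and the difference between platforms can be described, and a response to tamoxifen cannot. No value below has a replicate, and all intervals and tests cover counting error in these 2 libraries only.

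The Hippo pathway is a kinase cascade that restrains growth in response to cell contact, cell shape and tension. The membrane-linked protein merlin (gene NF2) promotes activation of the LATS kinases, which phosphorylate the coactivators YAP (gene YAP1) and TAZ (gene WWTR1) and hold them in the cytoplasm. When the kinases are inactive, YAP and TAZ enter the nucleus, bind TEAD transcription factors on DNA, and raise genes such as CCN1, CCN2 and ANKRD1. In breast epithelial lines YAP and TAZ are known for their part in growth, matrix sensing and mesenchymal features.

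Total depth was 403235 counts by Nanopore and 191741714 by Illumina, so that 1 count was worth 2.48 counts per 1000000 (CPM) by Nanopore against 0.00522 CPM by Illumina. The limit that a count of 0 allows, 3 counts, was 7.44 CPM and 0.0156 CPM. The epithelial label was checked against markers. All 8 basal markers and all 4 general epithelial markers had counts in both libraries, with KRT5 highest at 680 Nanopore counts and EPCAM and CDH1 lowest at 3 Nanopore counts each. Of markers of other cells, CD68 had 13 Nanopore and 8643 Illumina counts and DCN had 10 and 5075. PECAM1 and COL1A1 had no Nanopore count but 973 and 946 Illumina counts, above the 770 of EPCAM, and at those levels only 2.05 and 1.99 Nanopore counts would be found. PTPRC, CD3E, VWF, CDH5 and PDGFRB had no Nanopore count and at most 27 Illumina counts.

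The 2 CCN genes were the most read members by Nanopore, and YAP1 was read more than WWTR1 in both libraries. Of the 10 genes, 9 had a Nanopore count and 10 an Illumina count. ANKRD1 had none by Nanopore. In the Nanopore library, where each read stands for 1 RNA strand and values were not divided by length, CCN2 stood at 322 CPM (exact Poisson 95% interval 269 to 383), CCN1 at 265 CPM (217 to 321), TEAD1 at 126 CPM (94.2 to 166) and YAP1 at 107 CPM (77.2 to 144). Below them came AMOTL2 at 37.2 CPM, WWTR1 at 24.8, TEAD4 at 19.8, LATS1 at 12.4 and NF2 at 9.92. Of the 9 neighbouring pairs in this order, 7 had overlapping intervals. The clear steps were from CCN1 down to TEAD1 and from YAP1 down to AMOTL2.

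**Figure D1:**
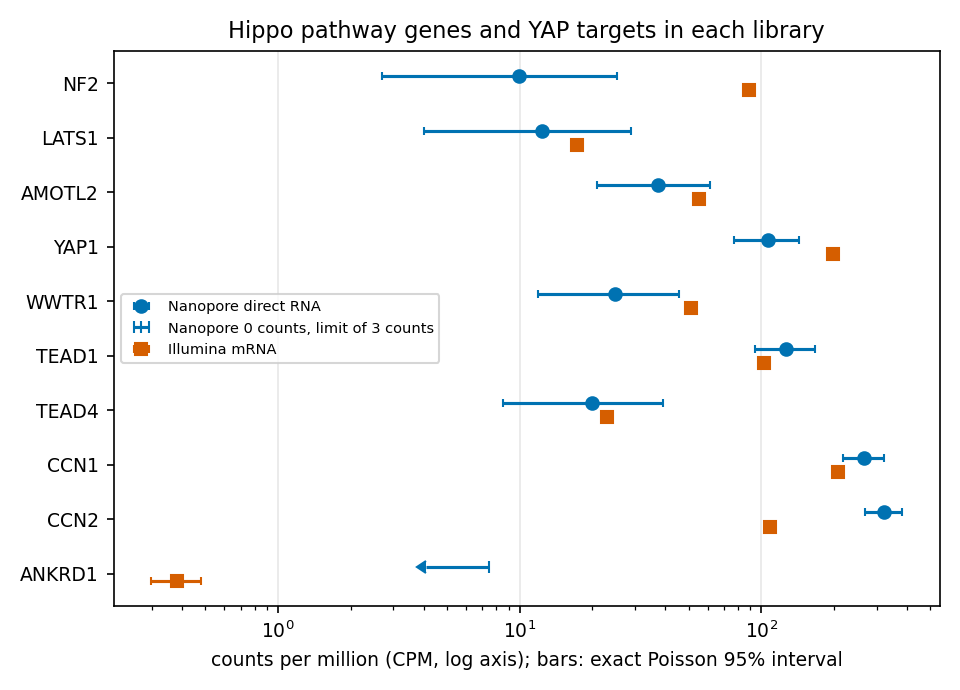
Level of each gene in each library, in CPM on a log axis, with circles for Nanopore, squares for Illumina and bars for exact Poisson 95% intervals. The arrow at ANKRD1 marks 0 Nanopore counts with the limit of 7.44 CPM (3 counts) that they allow, and CCN2 and NF2 show the widest gaps between libraries among the genes with Nanopore counts.

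In the Illumina library, levels of different genes were compared after division by union exonic length (TPM, scaled to the same sum in each library). On that scale CCN1 was highest at 152 TPM, followed by CCN2 at 125, YAP1 at 84.9, NF2 at 32.4, TEAD4 at 27.3, TEAD1 at 25.9, AMOTL2 at 23.1, WWTR1 at 16.6, LATS1 at 5.50 and ANKRD1 at 0.576. Counting intervals of neighbours did not overlap, but the choice of length moved the order: with mean transcript length CCN2 was at 55.5 TPM, below YAP1 at 82.9 TPM, and WWTR1 was at 39.1 TPM, above TEAD1 at 28.7 TPM. ANKRD1 was at the bottom in both libraries, and it was the only gene at the same rank by Nanopore CPM and by TPM of union exonic length. CCN1, CCN2 and YAP1 were among the 4 highest on all 3 scales, while TEAD1 was at rank 3 by Nanopore and at rank 6 or 7 by TPM.

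Each gene was then compared between libraries on its CPM by a two-sided exact conditional binomial test, run over the 12414 genes whose mean CPM reached 5 and adjusted by the Benjamini-Hochberg method. Of the 9 members tested, 2 were higher by Nanopore (CCN1 and CCN2) at an adjusted p under 0.05, where 20.2% of all tested genes were. Another 3 were higher by Illumina (YAP1, WWTR1 and NF2), where 27.2% of all tested genes were. With a 4-fold difference also required, on the scale log2((Nanopore CPM + 1)/(Illumina CPM + 1)), none was higher by Nanopore against 12.9% of all tested genes, and NF2 alone was higher by Illumina against 7.31%. The median log2 ratio was −0.45 over the 9 members and −0.42 over all tested genes, and 3 of the 9 members were above 0. These shares are near those of all tested genes and are not a result about the set, so what follows concerns single genes. With Illumina counts divided by union exonic length, 3 members were higher by Nanopore (31.2% of all tested genes) and 1 by Illumina (10.6%), of which 1 and 0 passed 4-fold (15.1% and 3.09%). With mean transcript length, 3 were higher by Nanopore (23.7%) and 1 by Illumina (15.8%), of which 2 and 0 passed 4-fold (13.5% and 3.4%). On both length scales the 3 were TEAD1, CCN1 and CCN2, and the 1 was NF2.

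The upstream regulators differed most in NF2, the tumour suppressor that encodes merlin. NF2 (ENSG00000186575, chromosome 22, 29603556 to 29698598, hg38) had 4 Nanopore counts, 9.92 CPM (2.70 to 25.4), and 16971 Illumina counts, 88.5 CPM. At the Illumina level 35.7 Nanopore counts would be found. NF2 was thus 8.92-fold higher by Illumina (exact 95% interval 3.48 to 32.8), with an exact binomial adjusted p of 3.83e-10. It stood below 96.8% of the tested genes of similar length, 5833 to 8626 bases, whose median log2 ratio was −0.77 against −3.04 for NF2. After division by union exonic length the gap was 3.27-fold (1.28 to 12.0), still toward Illumina, with an exact binomial adjusted p of 0.0192. The annotation puts only an intronic pseudogene with no Nanopore count inside NF2, and 3.03% of the 50-base words of its longest transcript occur in transcripts of other genes.

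LATS1 (ENSG00000131023, chromosome 6, 149658153 to 149718105), a kinase that phosphorylates YAP and TAZ, had 5 Nanopore counts and 3306 Illumina counts. Its levels were 12.4 CPM (4.03 to 28.9) and 17.2 CPM, and the ratio of Nanopore to Illumina, 0.719 (exact 95% interval 0.233 to 1.68), included 1. AMOTL2 (ENSG00000114019, chromosome 3, 134355347 to 134375479), an angiomotin-like scaffold that binds YAP and is itself a YAP target, had 15 Nanopore counts, 37.2 CPM (20.8 to 61.4), and 10612 Illumina counts, 55.3 CPM. Its ratio was 0.672 (0.376 to 1.11), and at this depth a difference could not be shown. The pseudogene RPL39P5 lies over the end of AMOTL2 on the same strand and shares 187 exonic bases with its 3′ untranslated part. It had 16 Nanopore counts, close to the 15 of AMOTL2, but 410 Illumina counts, 3.86% of those of AMOTL2. Whether the same Nanopore reads were counted for both genes was not tested.

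Both coactivators were higher by Illumina. YAP1 (ENSG00000137693, chromosome 11, 102110447 to 102233424) had 43 Nanopore counts, 107 CPM, and 37955 Illumina counts, 198 CPM, a level 1.86-fold higher by Illumina (exact 95% interval 1.38 to 2.57, exact binomial adjusted p of 4.26e-05). WWTR1 (ENSG00000018408, chromosome 3, 149517235 to 149736714), which encodes TAZ, had 10 Nanopore counts, 24.8 CPM (11.9 to 45.6), and 9809 Illumina counts, 51.2 CPM. It was 2.06-fold higher by Illumina (1.12 to 4.30), with an exact binomial adjusted p of 0.0344 that became 0.0634 with TMM scaling and 0.0663 with no filter on low genes. Both genes lay close to the median log2 ratio of −0.77 for tested genes of their length, with −0.89 for YAP1 and −1.02 for WWTR1. After division by union exonic length neither passed the test: YAP1 had a ratio of 1.26 (0.908 to 1.69) and WWTR1 of 1.495 (0.717 to 2.75), now on the Nanopore side of 1.

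Genes on the opposite strand overlap exons of the coactivators. ENSG00000254422, a long non-coding RNA gene, lies wholly inside the 3′ part of YAP1. It shares 628 exonic bases with YAP1, 87 of them coding. It had 19 Nanopore counts, 44.2% of the YAP1 count, and 1912 Illumina counts, 5.04% of it. WWTR1-AS1, which shares 756 exonic bases with the 5′ part of WWTR1, had 2 Nanopore and 336 Illumina counts. Neither table states whether strand was used in counting, so reads of each pair may not be separable.

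Within the pair of coactivators, the Nanopore interval included the Illumina share. WWTR1 held 18.9% of the 53 Nanopore counts of the pair (Clopper-Pearson 95% interval 9.44 to 32.0%) and 20.5% of the 47764 Illumina counts (20.2 to 20.9%). Length again entered: the Illumina share of WWTR1 was 16.3% per union exonic length and 32.0% per mean transcript length. YAP1 was the larger member on every scale.

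The TEAD factors, which carry YAP and TAZ to DNA, were represented by TEAD1 and TEAD4. TEAD1 (ENSG00000187079, chromosome 11, 12674421 to 12944737) had 51 Nanopore counts, 126 CPM, and 19585 Illumina counts, 102 CPM. Its CPM ratio of 1.24 (exact 95% interval 0.922 to 1.63) included 1, with an exact binomial adjusted p of 0.246. Yet TEAD1 is the longest gene of the set, with 10700 exonic bases. In its length group, which runs widely from 8628 to 122609 bases, 88.3% of tested genes had a lower ratio than its log2 value of 0.31. Per union exonic length TEAD1 was 4.89-fold higher by Nanopore (3.64 to 6.43, exact binomial adjusted p of 5.46e-18), and per mean transcript length 4.41-fold higher (3.28 to 5.80). No 50-base word of its longest transcript occurs in another gene, and the 4 genes inside its body had no count in either library.

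TEAD4 (ENSG00000197905, chromosome 12, 2959330 to 3040676) overlaps no other gene. It had 8 Nanopore counts, 19.8 CPM (8.57 to 39.1), and 4404 Illumina counts, 23.0 CPM, a ratio of 0.864 (0.373 to 1.70). Its log2 ratio of −0.20 lay beside the median of −0.23 for all tested genes of its length group, 2238 to 3966 bases. It was above −0.53, the median of those that, like TEAD4, overlap no other gene. TEAD4, with 2275 exonic bases, lies near the short end of that group. The next shorter group had a median of 1.21, and of 0.052 over genes that overlap no other gene. The direction of TEAD4 was the same under all alternatives in which it was tested.

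Over all TEAD genes, TEAD1 made up 76.1% of the 67 Nanopore counts (Clopper-Pearson 95% interval 64.1 to 85.7%) and 56.0% of the 34948 Illumina counts (55.5 to 56.6%), and these intervals did not overlap. TEAD2 held 10.4% by Nanopore (4.30 to 20.3%) and 21.9% by Illumina. TEAD4 held 11.9% (5.30 to 22.2%) and 12.6%, and TEAD3 1.49% (0.0378 to 8.04%) and 9.50%. Divided by union exonic length, the Illumina counts gave TEAD2 the largest share, 34.6%, with 26.1% for TEAD4 and 24.7% for TEAD1. TEAD1 therefore led the counts of both libraries, and TEAD2 led by Illumina per length.

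**Figure D2:**
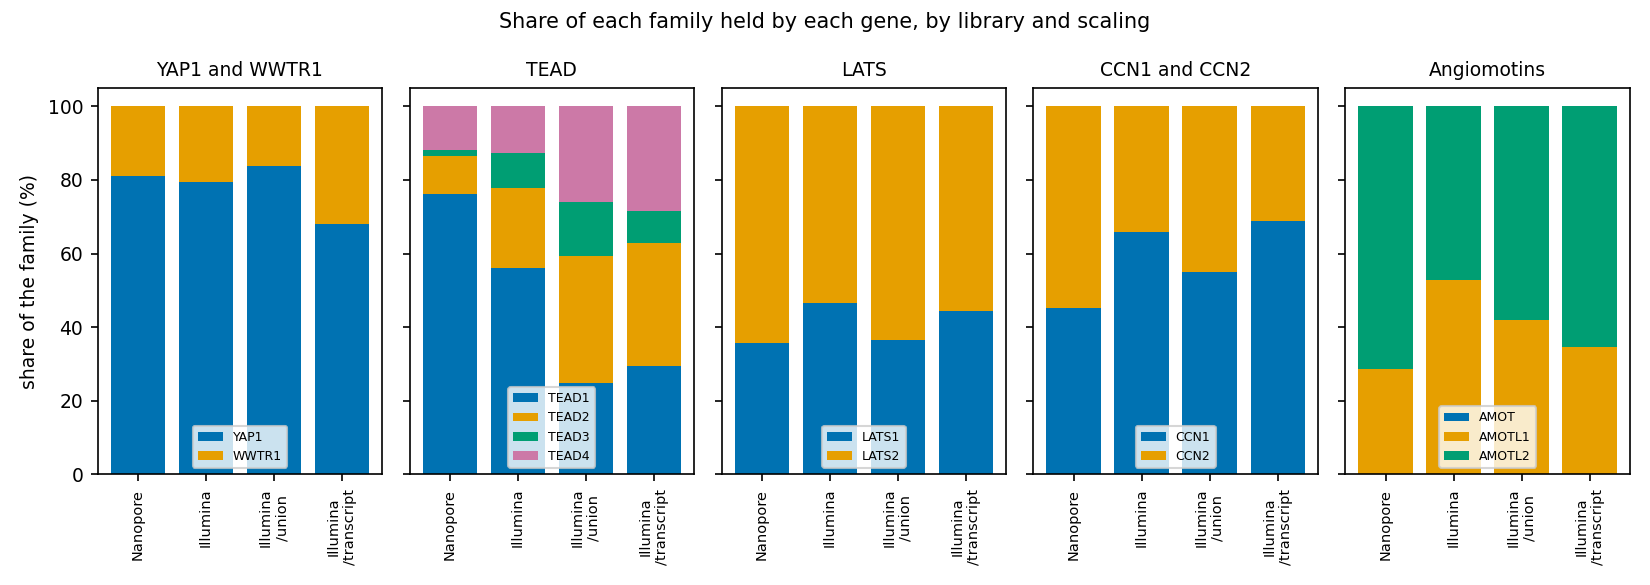
Share in percent of each gene family held by each gene, as stacked bars for Nanopore counts, Illumina counts, and Illumina counts divided by union exonic length or by mean transcript length. TEAD1 takes 76.1% of the TEAD counts by Nanopore and 24.7% by Illumina per union exonic length, while the YAP1 part of the first panel stays the larger on every scale. AMOT, with 1 Illumina count and 0 Nanopore counts, is too small to see.

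The classic targets were led by the CCN genes, which encode secreted matrix-associated proteins. CCN2 (ENSG00000118523, also known as CTGF, chromosome 6, 131948176 to 131951372) had 130 Nanopore counts and 20730 Illumina counts. Its 322 CPM in the direct RNA library were 2.98-fold higher than its 108 CPM in the Illumina library (exact 95% interval 2.49 to 3.54), with an exact binomial adjusted p of 1.45e-24. Of the tested genes of its length group, 2238 to 3966 bases, 87.1% had a lower ratio. CCN2, with 2338 exonic bases, lies near the short end of that group. The next shorter group had a median log2 ratio of 1.21, against 1.57 for CCN2. Its direction held on both TPM scales, at 2.57-fold (2.15 to 3.06) per union exonic length and 5.81-fold (4.85 to 6.90) per mean transcript length. The overlapping gene on the other strand, LINC01013, had no count in either library.

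CCN1 (ENSG00000142871, also known as CYR61, chromosome 1, 85580761 to 85584589) overlaps no other gene. It had 107 Nanopore counts, 265 CPM, and 39815 Illumina counts, 208 CPM, a level 1.28-fold higher by Nanopore (exact 95% interval 1.05 to 1.54, exact binomial adjusted p of 0.0361). With no filter on low genes, where more genes enter the adjustment, its exact binomial adjusted p was 0.0695. Per union exonic length CCN1 was 1.74-fold higher by Nanopore (1.43 to 2.11). CCN2 held 54.9% of the 237 Nanopore counts of the pair (48.3 to 61.3%), an interval that includes equal shares, and 34.2% of the 60545 Illumina counts (33.9 to 34.6%), or 45.2% of the latter per union exonic length.

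ANKRD1 (ENSG00000148677, chromosome 10, 90912096 to 90921087), a nuclear ankyrin-repeat protein of stressed muscle and a frequent YAP reporter, was nearly unread. It had 73 Illumina counts, 0.381 CPM (0.298 to 0.479), and 0 Nanopore counts, which allows up to 7.44 CPM. At the Illumina level 0.154 Nanopore counts would be found, so the libraries cannot be compared for this gene. Its Illumina level per union exonic length was 0.576 TPM, against 152 TPM for CCN1 and 125 TPM for CCN2.

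**Figure D3:**
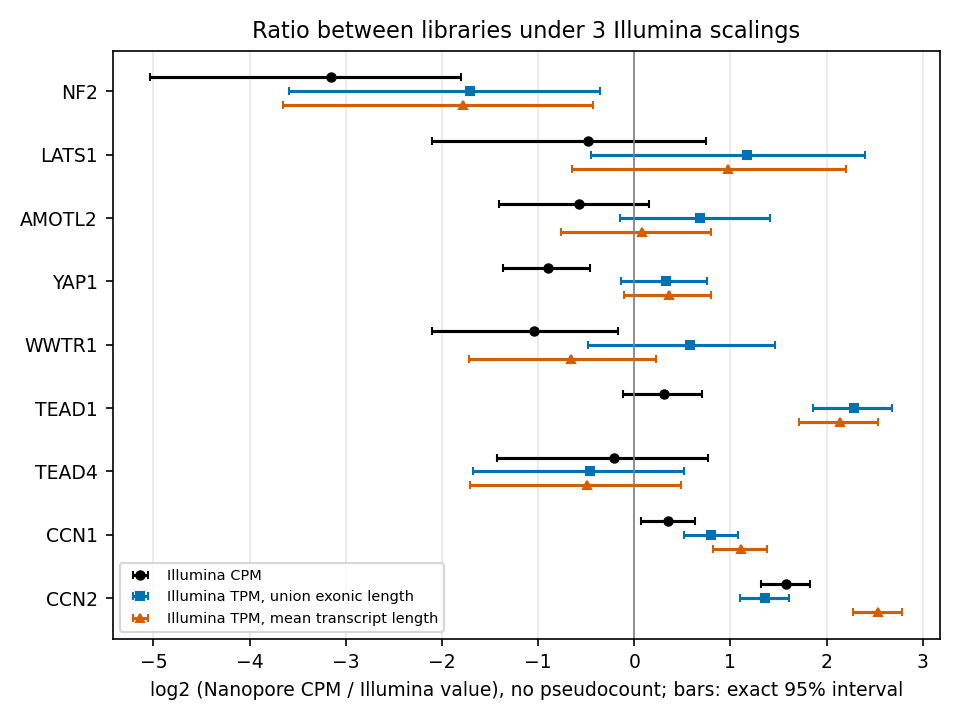
Ratio of each gene between libraries as log2 of Nanopore CPM over the Illumina value, with no pseudocount, for Illumina CPM (circles), TPM by union exonic length (squares) and TPM by mean transcript length (triangles), with exact 95% intervals as bars. CCN1 and CCN2 stay right of 0 and NF2 left of 0 on all 3 scales, YAP1 moves across 0 and TEAD1 moves away from it. ANKRD1 is not shown because it was not tested.

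**Figure D4:**
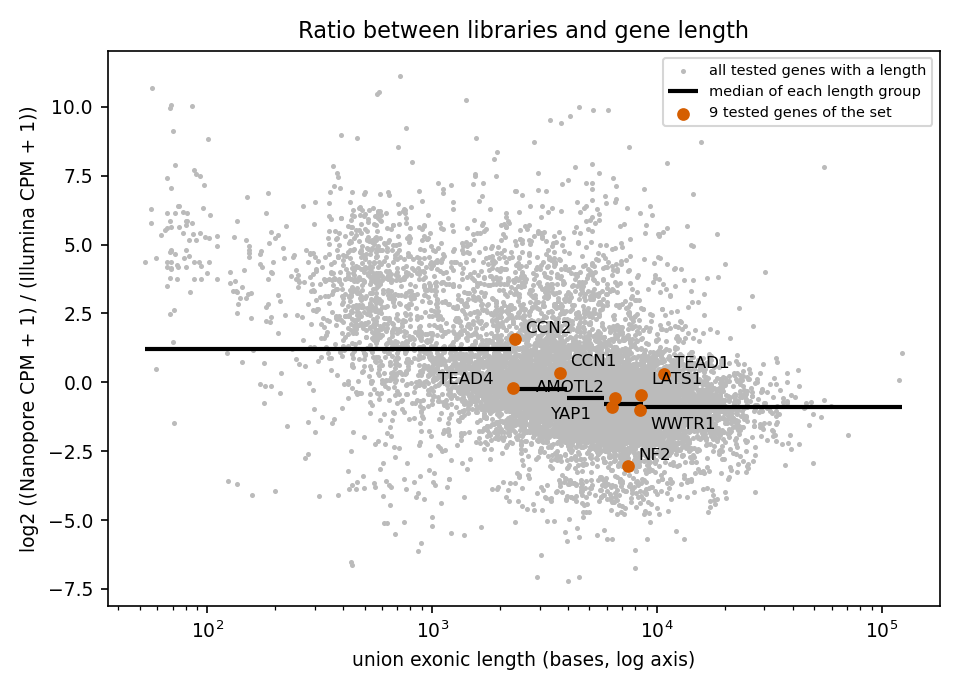
Log2 ratio, with 1 CPM added to each value, against union exonic length in bases on a log axis, for all tested genes with a length (grey), the 9 tested genes of the set (labelled points) and the median of each of 5 length groups (black lines). CCN2 and TEAD1 lie above the medians of −0.23 and −0.91 of their length groups, and NF2 lies at −3.04, below the median of −0.77. Over genes that overlap no other gene the medians of the 5 groups, from short to long, were 0.052, −0.53, −0.83, −0.98 and −1.03.

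The promoters of the targets are shown because TEAD factors are known to bind the letters GGAATG. RefSeq windows on GRCh38.p14, 300 bases from 250 before a start, were found for 7 of the 10 members, in 11 windows, and were not found for TEAD1, TEAD4 and CCN1. GGAATG on either strand was in windows of 4 members: CCN2, ANKRD1, AMOTL2 and YAP1. One match or more was present in 14.03% of the 35116 windows of that length. At least 3 matches were present in 45 windows, 0.128%, and the window of CCN2 was one of them. The upstream 250 bases of CCN2 (chr6:131951373-131951622, minus strand), ANKRD1 (chr10:90921088-90921337, minus strand) and the matching start of AMOTL2 (chr3:134374448-134374697, minus strand) follow 5′ to 3′, with GGAATG or its reverse complement CATTCC in capitals.
CCN2: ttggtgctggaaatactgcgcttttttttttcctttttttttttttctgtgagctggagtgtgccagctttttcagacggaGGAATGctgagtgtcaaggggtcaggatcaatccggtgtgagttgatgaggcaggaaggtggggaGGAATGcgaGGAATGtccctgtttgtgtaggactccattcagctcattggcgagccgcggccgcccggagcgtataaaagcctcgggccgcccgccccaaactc
ANKRD1: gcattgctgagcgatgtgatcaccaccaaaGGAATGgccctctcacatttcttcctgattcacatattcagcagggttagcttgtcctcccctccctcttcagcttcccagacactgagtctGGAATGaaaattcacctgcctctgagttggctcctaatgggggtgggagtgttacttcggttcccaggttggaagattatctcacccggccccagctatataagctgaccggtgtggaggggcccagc
AMOTL2: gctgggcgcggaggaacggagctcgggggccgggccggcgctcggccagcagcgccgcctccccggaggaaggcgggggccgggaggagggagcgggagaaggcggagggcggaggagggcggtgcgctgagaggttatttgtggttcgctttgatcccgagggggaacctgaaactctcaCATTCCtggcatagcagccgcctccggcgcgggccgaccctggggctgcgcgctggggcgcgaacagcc

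In CCN2 the matches began 169, 104 and 95 bases before the start, and the last 2 were 3 bases apart. ANKRD1 held 2 matches, 220 and 128 bases before the start, although it was nearly unread in these cells. The match of AMOTL2 was on the other strand, 69 bases before the start, and that of YAP1 was 162 bases before. The other motifs were also searched on both strands. TGANTCA (the AP-1 motif, in 7.71% of all windows) was in the window of ANKRD1 and in 1 of the 2 windows of LATS1. CAGGTG (an E-box that Snail can bind, in 20.6% of all windows) was in the window of ANKRD1 alone. A match is a run of letters and does not show binding.

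**Figure D5:**
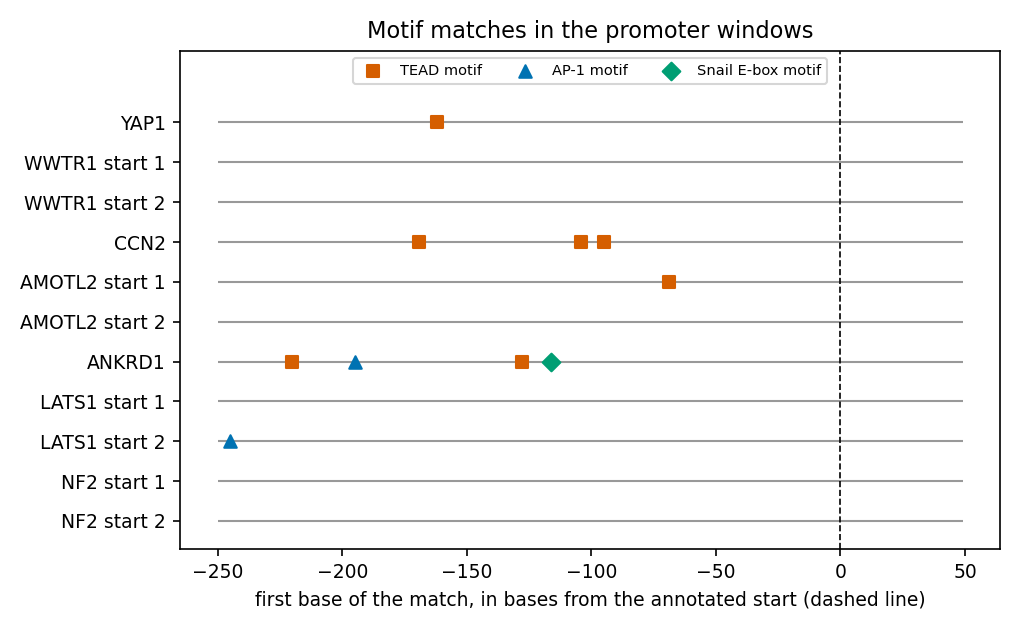
Position of each motif match, as bases from the annotated start, in the 11 promoter windows of 7 genes. Squares mark the TEAD motif, diamonds the Snail E-box and triangles TGANTCA, the AP-1 motif with any middle letter. CCN2 carries 3 TEAD matches and ANKRD1 carries 2, and 6 of the windows carry none of the motifs.

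The wider pathway was read from 4 lists of 49 genes in all, of which 43 were tested. Of these, 24 were higher by Illumina at an exact binomial adjusted p under 0.05 and 1 was higher by Nanopore, beside 27.2% and 20.2% of all tested genes. Their median log2 ratio was −1.07, against −0.42 for all tested genes. The balance changed with length: per union exonic length 5 were higher by Illumina (10.6% of all tested genes) and 10 by Nanopore (31.2%), with a median of 0.32 against 0.42 for all tested genes.

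Of 20 other upstream genes, among them kinases, scaffolds and junction proteins, 19 were tested. On the CPM scale 10 were higher by Illumina (27.2% of all tested genes) and 1 by Nanopore (20.2%), with a median log2 ratio of −0.96 against −0.42 for all tested genes. With union exonic length divided out, 0 were higher by Illumina (10.6% of all tested genes) and 6 by Nanopore (31.2%). The median was then 0.78 against 0.42 for all tested genes. Per mean transcript length 2 were higher by Illumina (15.8%) and 3 by Nanopore (23.7%). MAP4K4, a kinase that can act on LATS, was read at 84.3 CPM by Nanopore and 307.7 CPM by Illumina, and MOB1A, a LATS cofactor, at 59.5 and 126 CPM, both called higher by Illumina. STK4, a kinase upstream of LATS, was past 4-fold, with 3 Nanopore counts and a level 4.71-fold higher by Illumina (exact 95% interval 1.61 to 22.9). STK4 was on the other side per union exonic length, at a Nanopore to Illumina ratio of 1.30 (0.268 to 3.80). On that scale neither it nor MAP4K4 or MOB1A was called. Per mean transcript length MOB1A was still called, 1.66-fold higher by Illumina (1.12 to 2.60), and STK4 and MAP4K4 were not. TAOK3, a further upstream kinase, was the 1 gene called higher by Nanopore on the CPM scale. It had 62 Nanopore and 4503 Illumina counts, 6.55-fold higher by Nanopore (5.01 to 8.41). Inside TAOK3, in an intron on the opposite strand, lies the ribosomal protein pseudogene RPS2P5, which had 60 Nanopore and 11613 Illumina counts. The part of RPS2P5 in the TAOK3 count was not tested. AMOT was nearly unread, with 1 Illumina count, and within the angiomotins AMOTL2 held 71.4% of 21 Nanopore counts (Clopper-Pearson 95% interval 47.8 to 88.7%) and 47.3% of 22448 Illumina counts. LATS1 held 35.7% of the 14 Nanopore counts of LATS1 and LATS2 (12.8 to 64.9%) and 46.6% of their 7096 Illumina counts, which the Nanopore interval includes.

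Among 6 other TEAD and vestigial-like (VGLL) genes, whose products bind TEAD, 4 were tested and 3 were higher by Illumina on the CPM scale (27.2% of all tested genes) and none by Nanopore (20.2%). Per union exonic length none was higher by Illumina (10.6% of all tested genes) and 1 by Nanopore (31.2%). Per mean transcript length 1 was higher by Illumina (15.8%) and none by Nanopore (23.7%). The calls of TEAD2 and TEAD3 were thus lost on both length scales and that of VGLL4 per union exonic length. TEAD2 had 7 Nanopore and 7638 Illumina counts, and VGLL4 had 5 and 6395. TEAD3 was past 4-fold on 1 Nanopore and 3321 Illumina counts, 6.98-fold higher by Illumina with an exact 95% interval of 1.25 to 276. VGLL2 was at 0 in both libraries, and VGLL1 had 2 Illumina counts. CD37, on the opposite strand over the end of TEAD2, had 7 Nanopore counts, as many as TEAD2 itself.

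The family of 14-3-3 proteins, which hold phosphorylated YAP in the cytoplasm, was the most abundant list. All 7 genes were tested, and on the CPM scale 4 were higher by Illumina (27.2% of all tested genes) and none by Nanopore (20.2%). With Illumina counts per union exonic length, 3 were higher by Illumina (10.6% of all tested genes) and 2, YWHAB and YWHAZ, by Nanopore (31.2%). Per mean transcript length 2 were higher by Illumina (15.8%) and 1 by Nanopore (23.7%). YWHAZ stood at 637 CPM by Nanopore and 1106 CPM by Illumina, and YWHAE at 226 and 814 CPM. YWHAE was called higher by Illumina on the CPM scale and on both length scales. Per mean transcript length it was past 4-fold, at 4.76-fold (3.88 to 5.92). YWHAQ, at 407 and 343 CPM, was called only per mean transcript length, where it was higher by Nanopore. YWHAZ changed sides per union exonic length, with a log2 ratio of 0.86 in place of −0.79. Per mean transcript length it was at −0.42 and still called higher by Illumina.

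The other 18 genes of a published YAP and TAZ target signature, 2 of which (LATS2 and PTPN14) are also on the upstream list, gave 15 tested genes. On the CPM scale 8 were higher by Illumina (27.2% of all tested genes) and none by Nanopore (20.2%), with a median log2 ratio of −1.25 against −0.42 for all tested genes. Per union exonic length 2 were higher by Illumina (10.6% of all tested genes) and 2 by Nanopore (31.2%). The median was then 0.32 against 0.42 for all tested genes. Per mean transcript length 3 were higher by Illumina (15.8%) and 3 by Nanopore (23.7%). NT5E, an ectonucleotidase, was at 69.4 CPM by Nanopore against 179.5 CPM by Illumina. AXL, a receptor tyrosine kinase, was at 49.6 and 154.3 CPM. Both were called higher by Illumina on the CPM scale, NT5E also on both length scales and AXL on neither of them. MYOF, a membrane repair protein, was past 4-fold at 37.2 and 156.5 CPM, 4.21-fold higher by Illumina (exact 95% interval 2.55 to 7.52). This ratio was 1.34-fold (0.813 to 2.40) per union exonic length, where MYOF was not called. Per mean transcript length it was 1.98-fold (1.20 to 3.55), and MYOF was still called higher by Illumina. IGFBP3 had 207 Illumina counts and none by Nanopore, and LATS2, GADD45A and FJX1 had log2 ratios above 0 on the CPM scale without being called. In PTPN14, ENSG00000228470 on the same strand had 25 Nanopore counts, beside 26 for PTPN14, and 5 Illumina counts. The CCN genes thus differed in direction from the called genes of this signature on the CPM scale, a contrast that was not tested. Length was not matched in it: the called genes had from 2886 (F3) to 18752 (PTPN14) exonic bases, against 2338 for CCN2 and 3698 for CCN1.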

How the data were processed

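Analysed were 2 libraries of polyadenylated RNA, 1 by Nanopore direct RNA and 1 by Illumina. As deposited, each table has 1 column of raw gene counts without normalization for 58735 Ensembl identifiers. Per the submitters' processing notes, minimap2 2.11-r797, HISAT2 2.1.0, featureCounts and hg38 were used. Their options, the annotation release, the treatment of strand, of reads over several genes and of multiple mapping are not given in the sources used here. Per the file headers, the name of the Nanopore column ends in a suffix that no label explains. Whether the Nanopore reads were altered before counting, for example corrected with short reads, is not known, and the independence of both libraries rests on that.

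Identifiers were matched to GENCODE release 44 on hg38, and the 528 unmatched ones held 0.396% of Nanopore and 0.172% of Illumina counts. Depth was 403235 and 191741714 counts. CPM used these totals. With 1 library per platform no quasi-likelihood model could be fitted, so genes whose mean CPM reached 5 were tested by a two-sided exact conditional binomial test (scipy 1.17.1, p as double the smaller tail) with Benjamini-Hochberg adjustment over all of them. Log2 ratios used a pseudocount of 1 CPM. Folds and their 95% intervals used none, and came from the Clopper-Pearson interval of the Nanopore share of a gene's counts. Since amplified reads can be copies of 1 molecule, intervals and floors cover counting error only. For TPM, Illumina counts were divided by union exonic or mean transcript length. The test was checked on simulated counts.

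All 10 members are named. From each list the 3 most abundant genes, those past 4-fold and those at 0 in both libraries are named, as are genes that overlap a member and have at least 3 Nanopore or 300 Illumina counts. LATS2, PTPN14, GADD45A, FJX1, IGFBP3, VGLL1, AMOT, the genes that overlap list genes and overlapping genes below those counts were named after their values were seen. With 2 libraries a pattern across samples cannot be scored, so no gene was named for likeness. Members and lists were chosen with earlier results of these data known. Alternatives were TMM (edgeR 4.0.16) and median-ratio scaling, both TPM scales, pseudocounts of 0.1 and 5 CPM, filters of 1 and 20 CPM or none, and genes that overlap no other gene. Those for the pathway lists were chosen after seeing the data. Copies on alternate contigs were looked for with minimap2 2.31. No member had one with at least 80% of its longest transcript aligned at up to 5% divergence.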

Additional observations from a re-analysis of the deposited data

How the results depend on the processing

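Over the 10 alternatives, CCN2 stayed higher by Nanopore and NF2 higher by Illumina wherever they were tested, and both stayed past the adjusted p threshold. Division by length changed most. Per union exonic length 1 member was higher by Illumina, and with 4-fold required 1 was higher by Nanopore and 0 by Illumina. Per mean transcript length these counts were 1, 2 and 0. The log2 ratios that changed sign were, per union exonic and per mean transcript length, 0.32 and 0.36 for YAP1, 0.66 and 0.077 for AMOTL2, 1.04 and 0.88 for LATS1, and per union exonic length alone 0.55 for WWTR1. Per mean transcript length WWTR1 was at −0.64 with an exact binomial adjusted p of 0.303. TMM and median-ratio scaling raised all ratios by 0.088 and 0.13 on the log2 scale before the pseudocount and among the members ended only the call of WWTR1, at adjusted p of 0.0634 and 0.0814 by the same exact test. With no filter 1 member, CCN2, was higher by Nanopore. Among genes that overlap no other gene only CCN1 and TEAD4 remained, with 1 called higher by Nanopore, 0 by Illumina and 0 by Illumina past 4-fold. The pathway lists had 3 genes higher by Nanopore and 20 by Illumina with TMM, and 3 and 18 with median-ratio scaling, against 1 and 24. Per union exonic length they had 10 higher by Nanopore (31.2% of all tested genes) and 5 by Illumina (10.6%), with a median of 0.32. Per mean transcript length they had 5 (23.7%) and 8 (15.8%) with a median of −0.29, and without overlap 0 and 10 of 15. Shares of all tested genes are given only for plain CPM with the 5 CPM filter and for both TPM scales. The counts called with TMM, median-ratio scaling, another filter or without overlap have no such share beside them. They are not a result about these genes. Illumina family shares per union exonic and per mean transcript length were 16.3% and 32.0% for WWTR1, 24.7% and 29.3% for TEAD1, 36.6% and 44.5% for LATS1, 45.2% and 31.1% for CCN2, and 58.1% and 65.3% for AMOTL2. By mean transcript length 2 members kept their Nanopore rank, against 1 by union exonic length. No paired analysis was possible because each platform has 1 library. Nanopore depth limits ANKRD1, LATS1, NF2, TEAD4 and WWTR1, each with 10 counts or fewer.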
